A study of Pteromalus puparum with 9 samples.

Results

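Genes of Pteromalus puparum, a wasp that parasitises butterfly pupae, are described here whose best-counted isoform differed between the salivary gland and the carcass. Such a gene is approximated by an ID stem, the ID of a transcript model without its isoform number, and 47 stems of 2707 that could be judged (1.74%) were chosen by their counts. A stem could be judged if it had 2 or more transcript models and at least 100 summed counts in each of the 9 libraries. It was chosen if one model held the most counts in all 6 gland libraries and a different model held the most in all 3 carcass libraries. Mean levels of the whole stem also had to lie less than 4-fold apart between the tissues. Among all 21808 stems and 40026 models of the series the 47 are therefore well-counted genes whose summed RNA level differed less than 4-fold and whose leading isoform differed. These stems are called switch stems, the 2 models are called the gland-leading and the carcass-leading model, and a share is a model's percent of its stem's counts in a library.

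A single gene can give several mature RNAs, through alternative start sites, alternative splicing of its exons and alternative ends. The resulting isoforms may encode different proteins, or the same protein with different untranslated ends, and in insects many isoforms are restricted to certain tissues. Salivary glands of insects make and store secreted proteins, while a carcass preparation mixes many other organs. A change of isoform can leave the summed level of a gene as it was, and it shows when the models of a gene are counted apart.

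RNA came from wild-type wasps, from the duct and the reservoir of the salivary gland and from the carcass. Each tissue had 3 libraries, labelled as biological replicates of a single batch. No treatment is labelled, and the labels give neither sex nor stage, nor how many animals made up a library. They also do not say what the carcass contained. Bulk libraries cannot tell a smaller number of cells using an isoform apart from less of it per cell. The libraries held 18690598 to 22640711 estimated counts from Salmon, a program that divides reads compatible with several models between them. TMM scaling factors of stem totals were 0.949 to 1.04 for duct libraries, 0.746 to 0.819 for reservoir libraries and 1.08 to 1.63 for carcass libraries. Replicates of the duct correlated in log CPM at 0.948 to 0.957, those of the reservoir at 0.94 to 0.954 and those of the carcass at 0.916 to 0.939, and no replicates differed by as little as sampling noise. The deposited tables pair no ID with a gene name, so neither roles nor sequences are given, and the tissues were not checked against marker genes.

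The 12 stems with the largest switch are described first, with shares in duct replicates 1 to 3, reservoir replicates 1 to 3 and carcass replicates 1 to 3, in that order. Switch size is the distance in percentage points that separated gland from carcass libraries, taken for the leading model with the smaller distance. Because these shares chose the stems, they are given as values with no test. In PB.6030, a stem of 2 models, the gland-leading PB.6030.5 held 74.5%, 100% and 73.8% of duct counts, 75.5%, 85.1% and 86.4% of reservoir counts and 7.1%, 0% and 0% of carcass counts. PB.6030.6 held the remainder, so that it was the only model counted in carcass replicates 2 and 3 and uncounted in duct replicate 2. The stem itself stood at 10.9 ± 1.88 CPM (TMM-scaled counts per 1000000 counts, SD, n = 3) in the duct and 14.6 ± 1.45 in the reservoir, compared with 20.1 ± 5.73 in the carcass.

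In PB.4603x, also of 2 models, PB.4603.2x held 100% of the counts in all 6 gland libraries and 33.9%, 11% and 22.2% in the carcass. PB.4603.4x had 2126 counts in the carcass and none in the gland, where the stem had 2778 duct and 1762 reservoir counts and 3 counts would be a share of 0.0661%. The gland was thus read as a single isoform and the carcass as a mixture in which PB.4603.4x led. A similar arrangement was seen in PB.2272x, where PB.2272.1x held 100%, 100% and 98.8% in the duct and 100%, 99.2% and 87.6% in the reservoir, compared with 32.3%, 13.3% and 22.3% in the carcass. PB.2272.3x held 67.7%, 86% and 77.7% in the carcass and was counted in a single gland library, reservoir replicate 3, at 11.1%. PB.2272x lay just inside the 4-fold limit, with 33.1 ± 8.01 CPM in the duct and 63.9 ± 9.32 in the reservoir, compared with 16.6 ± 4.73 in the carcass.

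PB.3878, of 11 models, was the best-counted of the 12. Its gland-leading PB.3878.14 held 76.6%, 93.5% and 86.1% in the duct and 93.3%, 96% and 93.6% in the reservoir, compared with 12.6%, 18.3% and 17.7% in the carcass. PB.3878.5 held 13.3%, 4.63% and 10% in the duct, 0% in every reservoir library and 85.9%, 79.5% and 80.4% in the carcass. No other model of the stem held more than 5.11% in any library. The levels of the stem were 79.4 ± 8.74 CPM in the duct and 136 ± 20.2 in the reservoir, compared with 173 ± 56.3 in the carcass.

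PB.414 and PB.814, of 2 models each, differed in which tissue carried the mixture. In PB.414 the gland-leading PB.414.3 held 89.6%, 87.1% and 92.6% in the duct and 97.2%, 97.9% and 97.7% in the reservoir, compared with 34%, 34.7% and 31.7% in the carcass, at almost equal stem levels of 39 ± 3.96, 43.3 ± 0.527 and 38.7 ± 4.74 CPM in duct, reservoir and carcass. The carcass libraries lay close together and held a sizeable part of the gland-leading isoform. In PB.814 the gland-leading PB.814.2 held 68.9%, 57.9% and 56.1% in the duct and 62.3%, 67.7% and 69.1% in the reservoir, compared with 6.03%, 10.6% and 7.66% in the carcass. Here the carcass was read almost wholly as PB.814.1 and the gland as both, while the stem was higher in the carcass (98.6 ± 23.1 CPM) than in the duct (29.8 ± 2.9) and the reservoir (37 ± 2.52).

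In PB.322 the gland-leading PB.322.1 held 86.2%, 86.5% and 85% in the duct and 80.1%, 81.9% and 74.9% in the reservoir, compared with 31.9%, 29.1% and 32.8% in the carcass. PB.322.5 held 62%, 64.7% and 61.6% in the carcass and 5.14% to 19.6% in the gland, and the remaining model stayed between 2.86% and 8.36% in every library. Duct, reservoir and carcass libraries formed 3 separate ranges for both leading models of this stem. PB.3757 differed from the stems above in having a further model of substantial share. PB.3757.2 held 91.4%, 79.3% and 94.2% in the duct and 60.7%, 63.4% and 58.9% in the reservoir, compared with 13.7%, 11.9% and 0% in the carcass. PB.3757.1, which led nowhere, held 0%, 11.5% and 0% in the duct and 30.3% to 36.6% in the reservoir, compared with 26.8% to 41.8% in the carcass, so reservoir and carcass overlapped in this isoform and the duct lay below both.

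PB.2337x, of 9 models, combined one carcass isoform with several gland isoforms. PB.2337.2x held 89.8%, 91.9% and 88.1% in the carcass, 8.2%, 4.04% and 3.39% in the duct and 7.97%, 4.92% and 11.6% in the reservoir. PB.2337.13x led in the gland, with 41.7%, 39% and 44.9% in the duct and 59.8%, 68.8% and 53.2% in the reservoir, and was nearly uncounted in the carcass at 0.158%, 0.0594% and 0.791%. In the gland 6 models averaged over 5% of the stem, in the carcass 1. The next of them, PB.2337.5x, held 17.9%, 19.4% and 20.1% in the duct and 10.2% to 10.8% in the reservoir, compared with 0.564% to 3.51% in the carcass.

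Shares in the last 3 of the 12 lay closer together. PB.3617.1x held 83.8%, 72.3% and 79.1% in the duct and 69.3%, 68.1% and 64.2% in the reservoir, compared with 27.9%, 27.7% and 23.5% in the carcass, with nearly all other counts in PB.3617.2x. PB.1944.5 held 90.2%, 92.8% and 91.4% in the duct and 85.2%, 84.8% and 80.3% in the reservoir, compared with 27.7%, 26.1% and 45.2% in the carcass, where replicate 3 stood nearest to the gland. In both stems every duct share lay above every reservoir share, and every reservoir share above every carcass share. In PB.1488, of 13 models, PB.1488.2 held 55.7%, 47.4% and 57.5% in the duct and 73.6%, 66.5% and 59.7% in the reservoir, compared with 13.5%, 13% and 0% in the carcass. PB.1488.1 held 45.6%, 33.8% and 55.5% in the carcass and had no count in any gland library, although the stem had 3073 duct and 4660 reservoir counts there, of which 3 would be a share of 0.0388%.

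**Figure D1:**
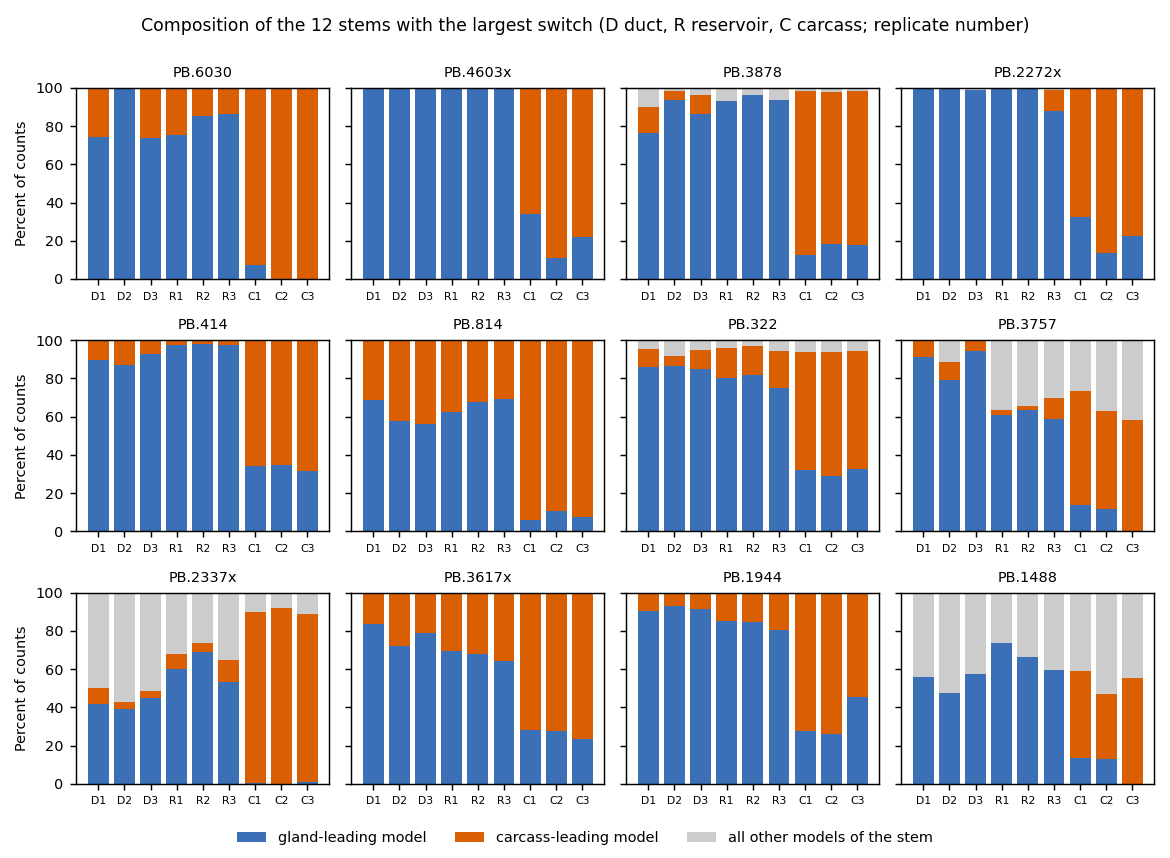
Stacked bars give the percent of a stem's counts in each of the 9 libraries (D duct, R reservoir, C carcass, with the replicate number) that fell on the gland-leading model, the carcass-leading model and all other models, for the 12 stems with the largest switch. Blue exceeds orange in every gland bar and orange exceeds blue in every carcass bar, grey is wide in PB.3757, PB.2337x and PB.1488, and the gland-leading model of PB.6030 is at 0% in carcass replicates 2 and 3.

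The stems with the most counts or the most models had smaller switches, apart from PB.3878 above. PB.5394, of 23 models, had 144055 counts over the 9 libraries and stood at 931 ± 82.4 CPM in the duct and 914 ± 90 in the reservoir, compared with 545 ± 115 in the carcass. PB.5394.32 held 53.4%, 52.9% and 53.1% in the duct and 70%, 68.2% and 64.8% in the reservoir, compared with 4.16%, 2.59% and 6.1% in the carcass. PB.5394.1 led in the carcass with 36.7%, 37.1% and 33.4%, but it also held 27.3% to 29.7% in the duct and 21.2% to 23.3% in the reservoir. Part of the carcass counts fell on isoforms that led nowhere. PB.5394.19 held at most 1.23% in any gland library and 19.9%, 16% and 19% in the carcass, and PB.5394.26 at most 0.51% and then 13.4%, 12% and 13.5%.

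PB.3694 had the most models, 38, and 110099 counts. Its gland-leading PB.3694.20 held 29%, 25% and 28.6% in the duct and 32.9%, 27.9% and 37.6% in the reservoir, compared with under 1% in the carcass (0.785%, 0.449% and 0.239%). No isoform dominated the carcass, where PB.3694.39 led with 19.7%, 20.3% and 21.8% and PB.3694.51 followed with 16.4%, 19.7% and 17.2%. Levels of the stem were 644 ± 25 CPM in the duct and 744 ± 46.4 in the reservoir, compared with 425 ± 11.1 in the carcass.

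PB.1700, of 8 models, was led in the gland by PB.1700.8 (duct 53.4% to 60.4%, reservoir 43.7% to 47.6%), which still held 20.5% to 26.2% in the carcass. PB.1700.6 led in the carcass with 29%, 30.6% and 28% and stayed at or below 1.24% in the gland, and PB.1700.7 held at most 4.38% in the gland and 18.3% to 20.6% in the carcass. PB.6699, of 6 models, had one duct library apart from the others: PB.6699.7 held 72.2% in duct replicate 1 but 40% and 39.6% in duct replicates 2 and 3, where PB.6699.15 held 29.5% and 32.4% against 7.16% in replicate 1. In the reservoir PB.6699.7 held 55.3% to 58.7% and in the carcass 13.3% to 15.2%. PB.5582, of 25 models, is a switch by rank alone: PB.5582.5 held 32.7% to 42.8% in the gland and 18.1% to 25.2% in the carcass, and PB.5582.3 held 23.5% to 28.9% in the gland and 27.9%, 40.5% and 25.5% in the carcass, so that the ranges of the carcass-leading model overlapped.

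**Figure D2:**
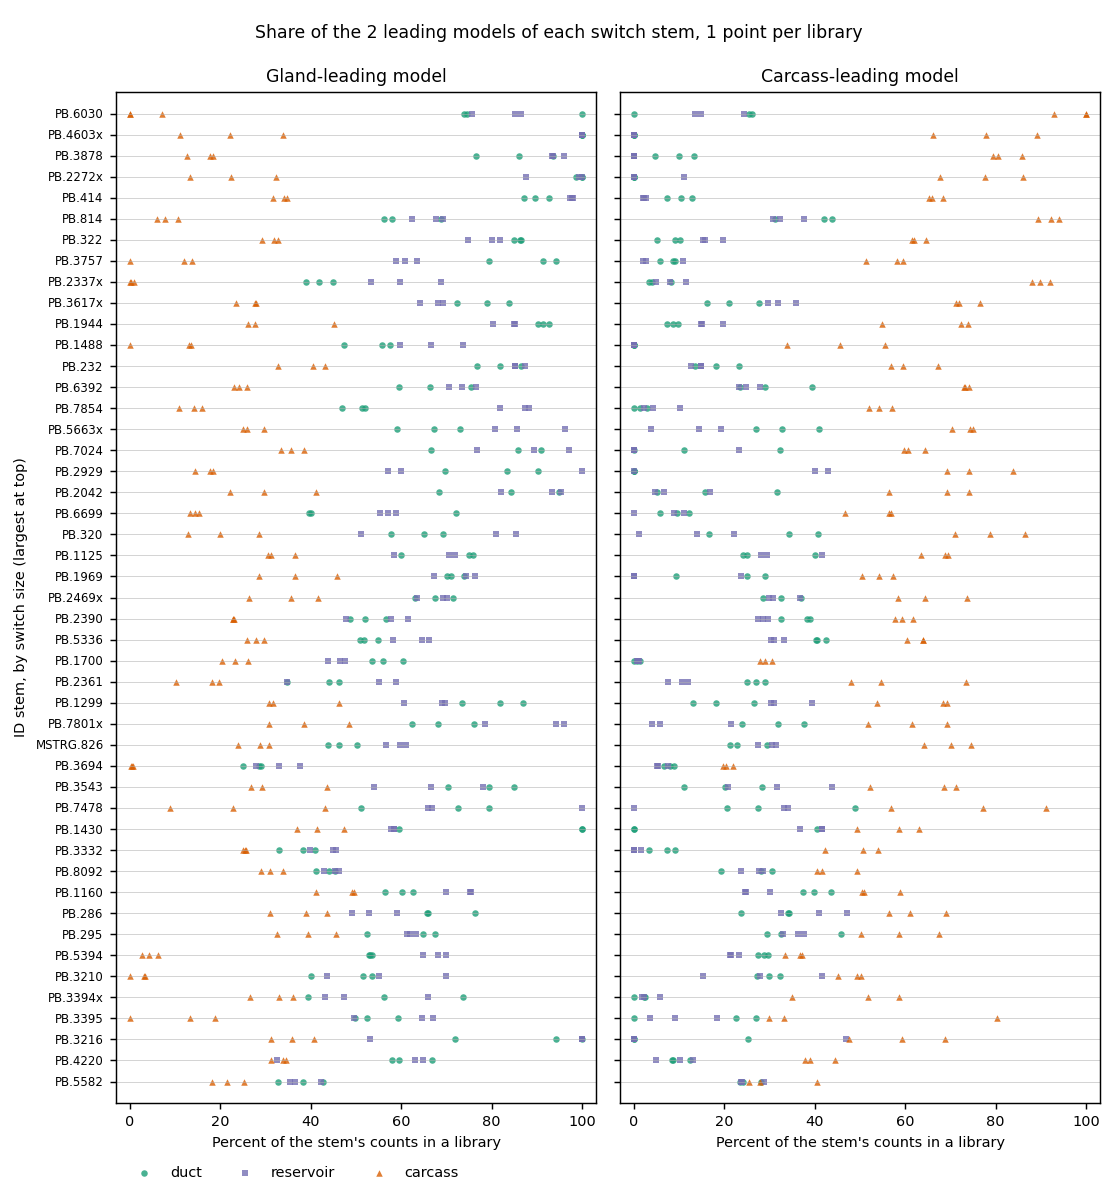
Points give the share of the gland-leading model (left) and of the carcass-leading model (right) in each library, as percent of the stem's counts, for the 47 switch stems ordered by switch size from the top. The distance between the carcass triangles and the gland circles and squares shrinks from 66.7 percentage points in PB.6030 to an overlap of the ranges at the bottom, in PB.4220 on the left and in PB.5582 on the right.

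Over the 47 stems the switch size ran from -3.38 to 66.7 percentage points with a median of 21.4. It was at least 30 points in 15 stems, 10 to under 30 in 17 and under 10 in 15, of which PB.4220 and PB.5582 lay at or under 0. Gland-leading models had a median share of 67.1% in the duct and 66.9% in the reservoir, compared with 26.4% in the carcass. Carcass-leading models had medians of 18.3%, 15.6% and 61.6%. Both leaders held the majority of the stem in every library of their tissues in 27 stems.

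Complete replacement of one isoform by another was not seen. No gland-leading model was without counts in the carcass as a whole, and 28 of the 47 held at least 20% in every carcass library. The carcass-leading model was uncounted in the gland in 2 stems, PB.4603x and PB.1488, and held at least 20% in every gland library in 12. Gland-leading models stayed under 5% in every carcass library in 3 stems, carcass-leading models under 5% in every gland library in 3, and no stem met both conditions.

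The 2 leading models held at least 90% of the counts in every library in 21 stems. Of these 11 have only 2 models, so that 10 of the 36 stems with 3 or more models were nearly a pair. A further model reached 20% in some library in 16 stems. Switch stems had a median of 4 models (range 2 to 38) against 3 in the stems that could be judged, and 22 of them (46.8%) had 5 or more models, against 912 of 2707 (33.7%). Whether the number of models bears on being chosen was not tested. By the form of the ID, 38 were PB stems without a trailing x, 8 were PB stems with it and 1 was an MSTRG stem, or 80.9%, 17% and 2.13%, where the stems that could be judged had 77%, 20.7% and 2.07%.

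The estimates themselves were unsteady in some stems. In 8 of the 47 a leading model stood at 0 in one library and at 20% or more in another library of the same tissue. In PB.3216, for example, the gland-leading PB.3216.1 held 100%, 53.1% and 100% in the 3 reservoir libraries, and PB.3216.2 held 0%, 46.9% and 0%. In PB.2929 the carcass-leading PB.2929.9 was uncounted in reservoir replicate 1 and held 42.9% and 40.1% in replicates 2 and 3. PB.6030, at the top of the order, belonged to these 8 through duct replicate 2. PB.3216 and PB.2929 were chosen as examples after their values were seen.

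Stems with the same number can exist with and without a trailing x, whose meaning no source used here gives, and 19 of the 47 had such a partner. Summed over the 9 libraries, the partner had fewer counts than the switch stem in 17 of them and more in 2. PB.414x had 1961524 carcass counts against 3273 of PB.414, and PB.295x had 339802 duct counts against 3375 of PB.295. Among the 17, PB.6030x had 1051 duct and 1143 reservoir counts against 657 and 687 of PB.6030. PB.3210x had 1340 carcass counts against 713 of PB.3210. If partners were joined, 38 of the 47 switches would stand with the same pair of models, and PB.6030, PB.414 and PB.5582 would be among the 9 that would not.

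Levels of whole stems were limited by the choice to less than 4-fold differences, and within that limit they fell on either side. Mean levels were highest in the carcass in 20 stems, in the reservoir in 22 and in the duct in 5, and tissue means lay less than 2-fold apart in 25. The median fold between the highest and the lowest tissue mean was 1.86 (1.11 to 3.99). All 3 carcass libraries lay below all 6 gland libraries in 15 stems (31.9%), where 32.1% of the stems that could be judged did so, and above all of them in 12 (25.5%), against a background of 17%. The first of these shares was close to its background. The background stems had no fold limit, with tissue means up to 838-fold apart, so the sets are unlike and the differences were not tested. Of the 18 further stems that met every other condition but differed by 4-fold or more, 7 had a carcass mean above both gland means.

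**Figure D3:**
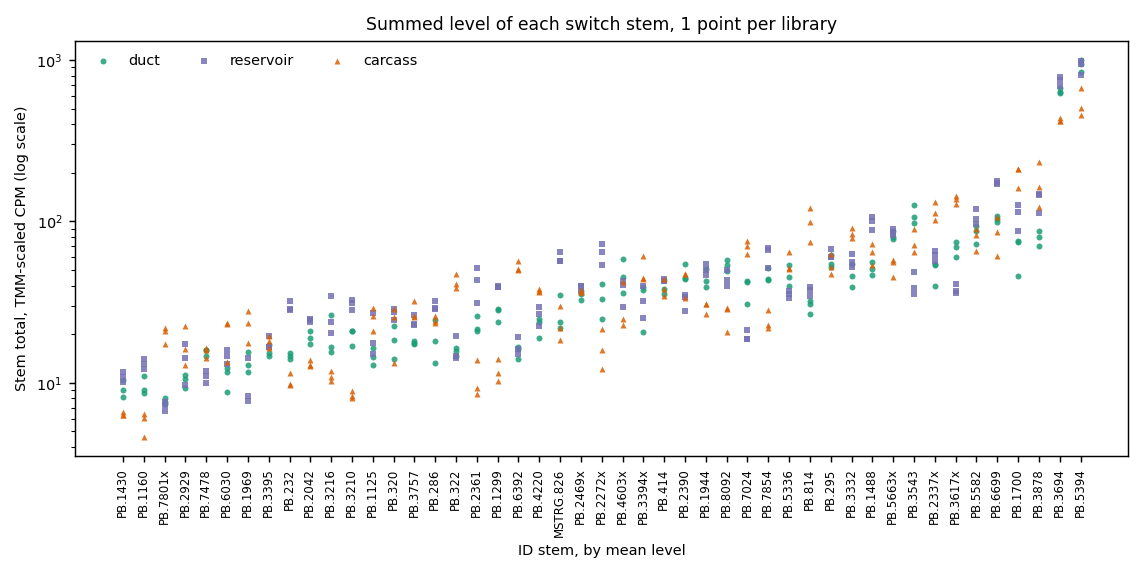
Points give the summed level of each switch stem in each library in TMM-scaled CPM (log scale), with stems ordered by their mean. Carcass points lie both above and below the gland points, 9 stems have a tissue mean over 100 CPM, and PB.3694 and PB.5394 stand above the rest.

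The edges of the rule were as follows, again as values. PB.2361 and PB.2272x lay just inside the fold limit, with tissue means 3.99-fold and 3.86-fold apart, and PB.8177 and PB.2399 just outside it, at 4.17-fold and 4.31-fold. PB.7801x and PB.1969 had the lowest counts among the chosen stems, 104 and 113 in their weakest library, and PB.4122x and PB.1723, with 85 and 75, met every other condition. Of the 47 stems 45 stood in each of the 9 selections that left out one library. Leaving out a library cannot undo the leader and count conditions of a chosen stem, so a stem could drop out only through the fold limit. PB.2361 stood in 4 of the 9 and PB.2272x in 7.

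Because counts grow with the length of a model, the leader by counts need not be the leader by number of molecules, and the lengths of the 2 leading models were compared. The ratio of count to TPM (transcripts per 1000000, a value corrected for length) is proportional to the effective length that Salmon used. It gave the length of the gland-leading model relative to the carcass-leading one for all 47 stems, from libraries in which both had at least 10 counts. Gland-leading models were longer in 20 stems and shorter in 27, with a median ratio of 0.974. Neither tissue was therefore read mainly through the longer isoform. Lengths lay within 10% of each other in 19 stems and more than 2-fold apart in 7. The longer model was a median of 1.15 times as long as the shorter, against 1.25 for the 2 best-counted models of 2559 stems that could be judged.

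The extremes were PB.2361 and PB.2390, whose gland-leading models were 6.22 and 6.14 times as long as the carcass-leading ones, and PB.286 and PB.5394, with ratios of 0.346 and 0.369. In PB.2390 the gland-leading PB.2390.6 held 48.7% to 56.7% of the duct counts, 47.8% to 61.5% of the reservoir counts and 22.7% to 23.1% of the carcass counts. Per length the order changed: in TPM the shorter PB.2390.3 led in all 8 libraries with usable TPM values, with 61% to 71.1% of the stem in the gland and 78% to 80.9% in the carcass. The share of the longer isoform was lower in the carcass on both scales, but only counts gave a change of leader. In PB.286 the shorter gland-leading PB.286.5 held 49.1% to 76.2% of the gland counts and 31%, 43.5% and 39% of the carcass counts, and in TPM it led in the carcass too, with 56.2%, 68.7% and 64.8%.

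Most switches between models of like length stood in TPM as well. TPM values are the same Salmon estimates corrected for length, so models of like length largely keep their order and this is no independent reading. Over the 8 usable TPM columns, with the same rule for leaders, the same pair of models switched in 33 of the 47 stems and no switch was found in 14. In 7 of the 14 the gland leader by counts still led all gland columns, and in 5 the carcass leader still led all carcass columns. Of the 19 stems with lengths within 10% of each other 17 switched in TPM, of the other 28 stems 16, and of the 7 with lengths more than 2-fold apart 2. PB.5394 was one of those 2, with 70.9% to 84.8% of the gland TPM of the stem on PB.5394.32, which had 5.89% to 13.8% in the carcass. Of the 15 stems with a switch of at least 30 points 14 switched in TPM, all but PB.1488.

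**Figure D4:**
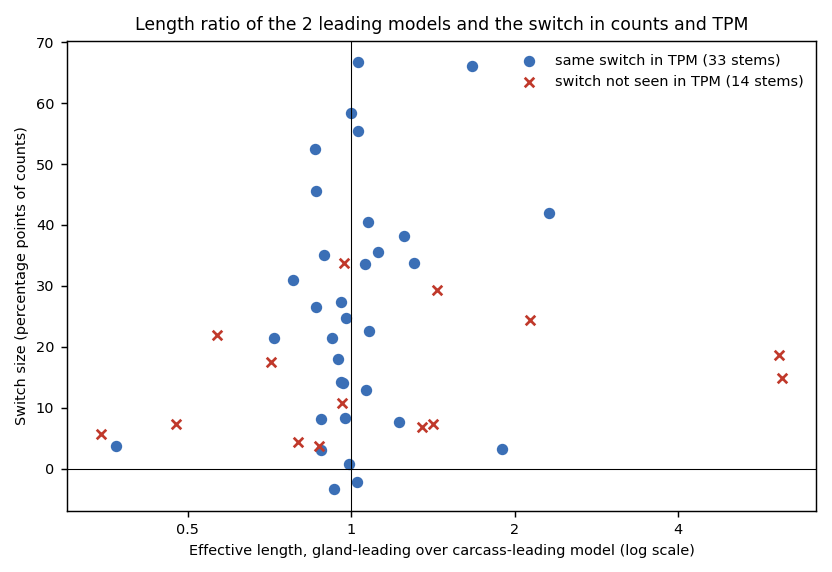
Each point is a switch stem, with the effective length of its gland-leading model over that of its carcass-leading model (log scale) on the horizontal axis and its switch size in percentage points of counts on the vertical axis. Blue circles mark the 33 stems with the same switch in TPM and red crosses the 14 without it, and the crosses include 5 of the 7 stems whose lengths differ more than 2-fold.

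Whether a switch seen with one gland part holds in the other was read from libraries that took no part in the choice. With the rule applied to duct and carcass alone, 91 stems were chosen, and 77 of them had at least 100 counts in every reservoir library. In 53 of the 77 (68.8%) the leading model of the duct also led all 3 reservoir libraries. The carcass leader led there in 7, another model in 1, and the reservoir libraries had no common leader in 16. Among 2197 stems with a single duct leader and enough counts, whatever the carcass did, the reservoir had the same leader in 1917 (87.3%).

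With reservoir and carcass choosing, 93 stems were chosen, all with enough counts in the duct. The reservoir's leader led all 3 duct libraries in 46 of them (49.5%), the carcass leader in 15 and another model in 1, and 31 had no common leader in the duct. The background was 86.4% of 2219 stems. Both shares lay below their background, and the differences were not tested. A stem whose leader was shared by duct and reservoir met every condition of the switch stems apart from the fold limit over all tissues. The stems with a shared leader in either direction are therefore largely the switch stems themselves, and the directions are not separate readings.

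Between reservoir and duct the rule asked for one common leader but left the size of its share free, so that isoform usage of the switch stems could be compared between the gland parts. The F test of limma's diffSplice, on voom values of all 9 libraries, called 211 of 4152 tested stems (5.08%) at an adjusted p (Benjamini-Hochberg) under 0.05, and 161 of the 2445 tested stems that could be judged (6.58%). Of the 47 switch stems 8 (17%) were called. The F test takes all tested models of a stem together, so its p belongs to the stem and not to the gland-leading share alone. Switch stems have several well-counted isoforms by choice, and how far this bears on the share called was not tested. The gland-leading share was higher in the reservoir in 7 of the 8 and lower in 1.

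The largest difference among the 8 was that of PB.7854, of 9 models. PB.7854.19 held 51.4%, 51.9% and 47% in the duct and 81.9%, 87.4% and 88.3% in the reservoir, compared with 14.2%, 15.9% and 10.8% in the carcass. All reservoir libraries lay well above all duct libraries, and the duct stood between the reservoir and the carcass. PB.7854.3 took up much of the rest in the duct, with 27.8%, 16.1% and 26.2%, but stayed under 1% in the reservoir. The gland-leading share was 35.8 points higher in the reservoir. The call is for the 6 tested models of the stem together (limma diffSplice adjusted p = 0.0401).

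In PB.5663x, of 2 models, PB.5663.2x held 72.9%, 59% and 67.2% in the duct and 96.3%, 85.6% and 80.8% in the reservoir, compared with 29.6%, 25.1% and 25.8% in the carcass. The 3 tissues did not overlap, and the reservoir was 21.2 points above the duct (limma diffSplice adjusted p = 0.0248). PB.2337x, with the values given above, was 18.8 points higher in the reservoir, without overlap of the libraries. Its call is for the 8 tested models of the stem together (limma diffSplice adjusted p = 0.0401). PB.414, also above, was 7.84 points higher in the reservoir (limma diffSplice adjusted p = 0.0149), and all of its reservoir libraries lay above its duct libraries.

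MSTRG.826, of 3 models, held 50.1%, 46.3% and 43.7% of its counts on MSTRG.826.1 in the duct and 59.8%, 56.6% and 61% in the reservoir, compared with 24%, 28.7% and 30.7% in the carcass. The third model, MSTRG.826.3, had its highest shares in the duct, with 27%, 32.5% and 26.9% of the stem, against 8.88%, 13% and 11.5% of reservoir counts and 1.21% to 5.15% of carcass counts. The gland-leading share was 12.4 points higher in the reservoir without overlap. The call is for the 3 models of the stem together (limma diffSplice adjusted p = 0.0203).

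In PB.3694 and PB.2361 the gland-leading shares overlapped between the gland parts, and other models separated them. PB.3694.20 was 5.28 points higher in the reservoir on average (limma diffSplice adjusted p = 0.000631 for the stem), while PB.3694.51 held 6.16%, 5.85% and 5.73% in the duct and 3.62%, 4.09% and 3.7% in the reservoir. In PB.2361, of 19 models, PB.2361.2 held 46.2%, 44.1% and 34.7% in the duct and 58.7%, 55.1% and 34.7% in the reservoir, 7.84 points higher on average. The carcass-leading PB.2361.26 separated the gland parts, with 26.9%, 25% and 29.1% in the duct and 7.44%, 10.6% and 12.1% in the reservoir, compared with 48.1%, 73.4% and 54.7% in the carcass (limma diffSplice adjusted p = 0.0339 for the stem).

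PB.1430, of 4 models, was the stem with the opposite sign. PB.1430.1 held 59.6%, 100% and 100% in the duct and 57.6%, 58.5% and 58.3% in the reservoir, compared with 36.9%, 47.4% and 41.4% in the carcass. The reservoir was 28.4 points lower on average, a difference of -28.4 in the gland-leading share (limma diffSplice adjusted p = 0.0171), and it rested on duct replicates 2 and 3, since duct replicate 1 lay within 3 points of the reservoir. It is one of the 8 stems with a leading model at 0 in one library and at 20% or more in another of the same tissue.

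None of the 8 calls stood in every fit that left out 1 library. PB.3694 lost it without duct replicate 2 or 3, PB.5663x without duct replicate 2 or 3 or reservoir replicate 2, PB.1430 without duct replicate 2 or 3 or reservoir replicate 2 or 3, and PB.414 and MSTRG.826 without duct replicate 2 or any reservoir replicate. PB.2337x lost it without any duct or reservoir library, and PB.2361 without any duct library, reservoir replicate 1 or 2, or carcass replicate 3. PB.7854 stood only without duct replicate 1 or 2. The highest limma diffSplice adjusted p in these fits was 0.126 for PB.3694, 0.086 for PB.414, 0.174 for PB.1430, 0.14 for MSTRG.826, 0.133 for PB.5663x, 0.218 for PB.2361, 0.275 for PB.2337x and 0.276 for PB.7854, and no difference changed sign. Leaving out a carcass library cannot alter the share difference between the gland parts. The share difference of PB.7854 lay between 34.21 and 37.74 points throughout and that of PB.2361 between 3.21 and 15.25. That of PB.1430 ran from -41.85 to -21.65. With edgeR's diffSpliceDGE in place of limma the calls of MSTRG.826 (adjusted p = 0.196), PB.1430 (0.665), PB.2337x (0.681) and PB.2361 (0.342) ended and the other 4 stood, and with a Simes test per stem in limma PB.2361 (adjusted p = 0.066) and PB.7854 (0.0945) did not pass. With only models of at least 10 CPM in 3 libraries, limma diffSplice no longer called MSTRG.826 (adjusted p = 0.975), PB.2337x (0.921) or PB.7854 (0.268), and PB.1430 and PB.2361 were not among the stems tested. With no filter PB.2361 was not called (limma diffSplice adjusted p = 0.213).

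Over all 47 stems the gland-leading share of the 3 reservoir libraries lay wholly above that of the duct in 10 (21.3%) and wholly below it in 8 (17%). Among 1917 stems with a single gland leader 11.4% and 10.2% did so. In the remaining 29 switch stems the ranges overlapped. The mean difference ran from -28.4 to 35.8 points with a median of 4.11.

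**Figure D5:**
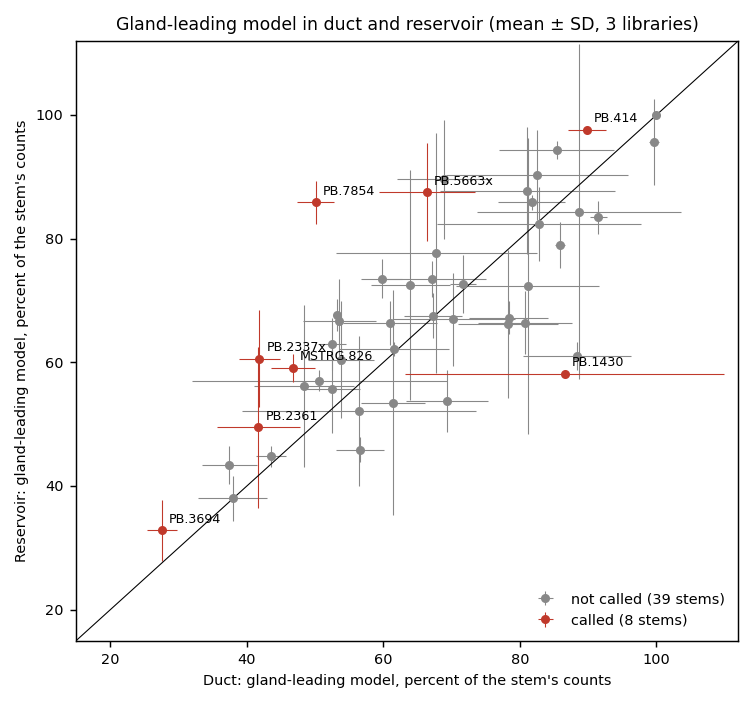
Each point is a switch stem, with the share of its gland-leading model in the duct on the horizontal and in the reservoir on the vertical axis, as percent of the stem's counts (mean ± SD of 3 libraries), and the line marks equal shares. Red marks the 8 stems called for isoform usage, 7 of them above the line and PB.1430 below it with a wide duct error bar.

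Stem totals were compared between reservoir and duct with edgeR's quasi-likelihood F test, with calls made at an adjusted p (Benjamini-Hochberg) under 0.05 and a fold of 2 or more in either direction, a log2 fold change of 1. Of all 12143 tested stems 2079 (17.1%) were called, 758 higher in the reservoir (6.24%) and 1321 lower (10.9%). Of the 47 switch stems 3 were called, 2 higher and 1 lower, a count that the 4-fold limit of the rule bears on. In PB.232 the level was 14.7, 14.1 and 15.3 CPM in the duct and 32.3, 28.3 and 28.7 in the reservoir, compared with 9.78, 11.6 and 9.71 in the carcass. The reservoir stood clear of both other tissues, with a log2 fold change of 1.02 ± 0.11 (SE) against the duct (edgeR adjusted p = 0.000591). Its isoform shares overlapped between the gland parts, where PB.232.2 held 81.7% ± 4.91 of the duct counts and 85.8% ± 1.25 of the reservoir counts (SD, n = 3).

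MSTRG.826 had 34.8, 24 and 21.9 CPM in the duct and 56.7, 64.5 and 57.1 in the reservoir, compared with 18.3, 30.1 and 21.9 in the carcass. Duct and carcass overlapped and the reservoir lay above both, with a log2 fold change of 1.15 ± 0.23 (SE) against the duct (edgeR adjusted p = 0.00781). It was the only switch stem called both for its total and for its usage. PB.3543, of 8 models, had 98.3, 127 and 106 CPM in the duct and 35.3, 38.5 and 48.5 in the reservoir, compared with 89.4, 71.1 and 65.1 in the carcass. The duct libraries lay above all carcass libraries and the reservoir libraries below them, the only switch stem with that order of totals, and its log2 fold change was -1.43 ± 0.19 (SE) in the reservoir relative to the duct (edgeR adjusted p = 0.00118). PB.3543.9 led in both gland parts all the same, with 70.4% to 84.9% in the duct and 54% to 78% in the reservoir, against 26.8% to 43.5% in the carcass.

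The calls of PB.232 and MSTRG.826 depended on the scaling: with libraries scaled by size alone their log2 fold changes were 0.68 (edgeR adjusted p = 0.0552) and 0.79 (edgeR adjusted p = 0.107), and without duct replicate 2 PB.232 stood at 0.99, just short of the fold minimum. Scaling by size moved the median of all stems by -0.344. The log2 fold change was above 0 in 35 of the 47 switch stems (74.5%), against 47.3% of all tested stems and 57.4% of those that could be judged, and in 20 of the 47 when libraries were scaled by size alone, so no common direction of the switch stems between the gland parts stands in both.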

How the data were processed

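The deposited counts are Salmon estimates for each transcript model from strand-specific paired-end libraries of 3 tissues, 3 libraries each, given as whole numbers and not normalized. Quantification used Salmon 1.9, per the submitters' processing notes, and no source used here names the reference transcripts, genome build or settings. TPM values were deposited too, and 8 of their columns add up to 1000000. One deposited column, labelled reservoir replicate 2, was treated as a score and not used: it adds up to 2000000 and equals duct replicate 3 plus reservoir replicate 1 in 99.95% of models within 2e-06.

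The switch stems, the named stems and the tests were chosen with earlier results of these data known. An ID stem is an ID without its final dot and isoform number, with a trailing x kept apart. Members were found on counts, with stem totals scaled by TMM in edgeR 4.0.16 (R 4.3.3). Gland against carcass chose the members and was not tested. Reservoir and duct were compared in fits to all 9 libraries with 1 coefficient per tissue: voom and diffSplice in limma 3.58.1 for usage, on the 21287 models kept by filterByExpr, and edgeR's quasi-likelihood test for stem totals, with a common biological coefficient of variation of 0.367. DESeq2 1.42.0 and edgeR's diffSpliceDGE were alternatives, and figures were drawn with matplotlib 3.10.9.

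Named in full were the 12 stems with the largest switch size. Also named were the 5 with the most counts, the 3 with the most models, those called between reservoir and duct, those at the edges of the rule and those with the largest and smallest length ratios.

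Scripts were tested on simulated data. The usage test made more false calls than its threshold allows when each model kept its own spread, and close to it with a common trend of spread, so usage calls near the threshold are weak. The libraries are labelled as biological replicates, but the labels do not say whether they came from separate animals or pools. The p-values therefore speak of the spread between these libraries, and how much of it is technical is not known. A level of 3 counts in a library equals 0.0909 to 0.21 CPM after scaling, and limits from 3 counts cover counting error only.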

Additional observations from a re-analysis of the deposited data

Results flagged for a closer look

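Duct and reservoir differed from the carcass to different degrees in the usage of 8 switch stems and in the total of 3, with MSTRG.826 among both, by the test of the difference itself (reservoir against duct). The total was higher in the reservoir in PB.232 and MSTRG.826, with log2 fold changes of 1.02 and 1.15, and neither was called with libraries scaled by size alone. The total of PB.3543 was lower in the reservoir, with a log2 fold change of -1.43, and stood above the carcass in the duct and below it in the reservoir. The share of the gland-leading model was further from the carcass in the reservoir by 35.8 points in PB.7854, 21.2 in PB.5663x, 18.8 in PB.2337x, 12.4 in MSTRG.826, 7.84 in PB.414, 7.84 in PB.2361 and 5.28 in PB.3694. In PB.1430 it was nearer to the carcass in the reservoir, by -28.4 points. In PB.2361 and PB.3694 the gland-leading shares of the 2 gland parts overlapped, and other models of the stem separated them. Each usage call ended when some single library was left out, the totals of PB.3543 and MSTRG.826 stood in all 9 such fits, between -1.51 and -1.21 and between 1.04 and 1.38, and that of PB.232 stood in 8, between 0.99 and 1.2.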

How the results depend on the processing

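The number of switch stems, 47, was 25 with tissue means less than 2-fold apart, 4 when a leading model needed at least 2 times the counts of the next, and 109 with the trailing x dropped, 38 of them with the same pair of models. It ranged from 48 to 73 when 1 library was left out, 73 without carcass replicate 2. Leaders by TPM gave 49, 33 of them shared. Usage calls between reservoir and duct, 211 of all stems and 8 switch stems, were 516 and 13 with no filter (7 of the 8 among them), 139 and 7 with at least 10 CPM in 3 libraries (3 of the 8 among them, with 36 switch stems tested), and 640 and 11 with the trailing x dropped (6 of the 8 among them). Leaving out 1 library gave 93 to 279 and 1 to 11. Switch stems called for their total numbered 3 of the 47, where 17.1% of all tested stems were called. They numbered 5 with RLE size factors and 5 with DESeq2, where 17.2% and 19.6% of all tested stems were called. With 1 library left out they numbered 2 to 7, where all stems gave 1720 to 2144 (13.8% to 17.4%). The stem total changed sign in 15 of the 47 switch stems with libraries scaled by size alone and in 0 to 3 under each other alternative. The 8 usage differences and 3 totals called gave 160 values under the alternatives, of which 108 kept the call and 52 lost it, all with the same sign. For usage the sign could change only when a gland library was left out, since the other alternatives did not alter the share difference. The totals of 13 further switch stems, with an adjusted p under 0.05 but under the fold minimum, gave 182 values, of which 16 gained a call.

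Deviations of same-numbered libraries of different tissues correlated at -0.103 to 0.128, and those of differently numbered libraries at -0.113 to 0.104. These correlations cannot show whether same-numbered libraries came from the same animals. With a replicate block usage was called in 221 stems, 7 of them switch stems and 5 of these shared, and totals in 1784, among them the same 3 switch stems. Under the block MSTRG.826 (limma diffSplice adjusted p = 0.107), PB.1430 (0.115) and PB.2337x (0.0658) were not called for usage.

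Counts of single models depend on how shared reads are divided, and depth limits the weakest stems, whose lowest library held 104 counts.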
